A study of Rattus norvegicus with 9 samples.

Results

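The genes of activin, of inhibin and of the proteins that receive or block their signal were followed in the rat adrenal medulla after immobilization stress. The named genes were Inhba, Inhbb, Inha, Fst, Acvr1b, Acvr2a, Acvr2b and Smad7, and every probe set annotated to exactly 1 of these symbols was taken. This gave 11 probe sets for 7 of the 8 genes, out of 20826 probe sets with 1 gene symbol and 31099 in all. No probe set was annotated to Acvr1b alone, so this type I receptor was not analysed here. The genes had been picked from results of these same arrays, in which the intensities of Inhba and its partners in the stressed and control arrays were known. Their levels and differences are therefore given as a description, with no p-value of their own.

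RNA was taken from the adrenal medulla of adult Rattus norvegicus of 280 to 320 g, in 3 groups of 3 arrays. Control rats were unstressed, IMO_1x rats were immobilized for 2 h in 1 session, and IMO_6x rats were immobilized for 2 h daily on 6 days, with both medullae dissected after the last session. No strain, sex, genotype or drug is stated in the labels used here, and the words mouse and brain in some label fields were set aside. Nothing in the labels ties an array to an animal, so the spread between arrays may be technical.

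Activins are dimers of β subunits, βA from Inhba and βB from Inhbb, and inhibins join the α subunit from Inha to a β subunit. Activin binds the type II receptors Acvr2a and Acvr2b, which recruit the type I receptor Acvr1b, and the activated complex phosphorylates Smad2 and Smad3, which act in the nucleus with Smad4. Follistatin, from Fst, binds activin outside the cell and neutralises it, inhibin competes for the type II receptors, and Smad7 is an inhibitory Smad that TGF-β family signals induce and that blocks type I receptors. Chromaffin cells of the medulla secrete catecholamines, while inhibin α is known in the adrenal gland as a product of the cortex around them.

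The promoters of the subunit genes Inhba and Inha are shown because these genes were higher in every stressed array, and because each holds a variant of the cAMP response element, the site through which cAMP signals act on many genes. The windows run from 250 bases before to 50 bases after the annotated start, are read 5′ to 3′ on the gene's strand, and come from RefSeq on the build GRCr8. The capitals mark the variant.
Inhba, chr17:53804459-53804758, minus strand: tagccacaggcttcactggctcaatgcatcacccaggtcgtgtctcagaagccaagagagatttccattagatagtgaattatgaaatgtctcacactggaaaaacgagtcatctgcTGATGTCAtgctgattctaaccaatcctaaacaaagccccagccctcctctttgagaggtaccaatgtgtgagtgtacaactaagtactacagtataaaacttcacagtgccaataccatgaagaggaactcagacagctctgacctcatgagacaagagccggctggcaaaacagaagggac
Inha, chr9:84442859-84443158, plus strand: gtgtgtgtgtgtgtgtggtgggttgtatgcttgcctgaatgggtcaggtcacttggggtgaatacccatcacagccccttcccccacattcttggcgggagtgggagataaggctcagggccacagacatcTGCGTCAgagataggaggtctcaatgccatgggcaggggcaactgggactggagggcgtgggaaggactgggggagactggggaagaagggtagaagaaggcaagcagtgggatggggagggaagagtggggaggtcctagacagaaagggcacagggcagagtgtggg
The Inhba window lies inside the annotated span of the gene, so it may belong to a start other than the most upstream. It holds TGATGTCA, with its first base 133 bases before the start, and 4.34% of 33469 promoter windows of the same length hold this motif on either strand. The Inha window holds TGCGTCA, 119 bases before the start, found in 1.9% of windows. It overlaps a match, on the other strand, to the core TGACG, which 21.2% of windows hold, that of Acvr2a among them. The full cAMP response element TGACGTCA (1.83% of windows), the AP-1 motif TGANTCA (7.33%) and the Smad palindrome GTCTAGAC (0.197%) had no match in the 7 windows found for these genes, and no window was matched for Fst. The motifs were chosen with the sequences in view, and a match describes letters only.

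Values are intensities on a linear scale, and a log2 level is log2(intensity + 16). The trimmed means of the arrays lay between 2500.6 and 2501, but their medians ran from 593 to 1583, the highest in IMO_6x replicate 1. The actin 3′/5′ ratio, which rises where labelled RNA is incomplete, was 230.6, 6.11 and 8.87 in IMO_6x replicates 1, 2 and 3 and at most 2.15 in the other 6 arrays. The GAPDH ratio was 5.02, 1.79 and 1.87 there, and at most 1.41 elsewhere. Across probe sets, the correlation of IMO_6x replicate 1 with any other array was 0.555 to 0.694, and the other 8 correlated among themselves at 0.831 to 0.981. RNA quality and 6 sessions therefore cannot be told apart, and the differences of the activin and inhibin genes, and those of other genes past the threshold, are also given without replicate 1 where they rest on IMO_6x. Of the chromaffin markers 9 of 10 were bright enough to test, with a mean log2 level of 14.45 to 14.96 in control, 14.70 to 15.27 in IMO_1x and 15.66 to 16.23 in IMO_6x. Cortex RNA was present in every array. Its 9 of 12 tested markers averaged 14.93 to 15.39 in control, 15.07 to 16.18 in IMO_1x and 16.36 to 16.90 in IMO_6x, and in the fit described below 2 of the 9 rose in IMO_1x and 7 in IMO_6x against control, where 3.80% and 9.03% of all genes rose. Of the 9 chromaffin markers 5 rose in IMO_6x. Leukocyte markers averaged 12.31 to 12.45, 12.18 to 12.47 and 11.04 to 11.87 in the same order. The part of these shifts in the results below was not tested. In such tissue samples, fewer cells of a type and less RNA per cell cannot be told apart.

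Inhba, the gene of the activin βA subunit, was the member that differed most from control. Its brighter probe set, 1383486_at, read 45.0, 184 and 175 in the control arrays, 4832, 4334 and 6738 in IMO_1x and 17075, 18393 and 11528 in IMO_6x. The 3 groups did not overlap, and their order was control, IMO_1x, IMO_6x. Within each array the probe set moved from the dim end to the bright end, at percentile 4.96 to 18.1 of all probe sets in control, 81.6 to 87.7 in IMO_1x and 93.3 to 97.0 in IMO_6x. On the log2 scale the mean level was 7.05 ± 0.97 (SD, n = 3) in control, 12.35 ± 0.33 in IMO_1x and 13.91 ± 0.36 in IMO_6x. The log2 difference from control was 5.30 ± 0.44 (SE of the fit, 39.4-fold) after 1 session and 6.86 ± 0.44 (116-fold) after 6. IMO_6x lay 1.56 ± 0.44 above IMO_1x. Without IMO_6x replicate 1 the last 2 values were 6.78 and 1.48.

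The other Inhba probe set, 1369012_at, gave the same order of the 3 groups with smaller differences. It read 406, 145 and 107 in control, 735, 707 and 880.4 in IMO_1x and 2797, 2504 and 1255 in IMO_6x. Again the groups did not overlap, with control replicate 1 the highest of the control arrays. Its log2 differences were 1.96 ± 0.52 for IMO_1x against control, 3.36 ± 0.52 for IMO_6x against control (3.14 without IMO_6x replicate 1) and 1.40 ± 0.52 between the stressed groups (1.19 without it). The control levels of both Inhba probe sets, 7.05 and 7.66 on average, lay under the limit of 8.51 used to leave out dim probe sets, so both were tested through their stressed arrays. Dim values are the least certain part of such folds, and no detection calls were used.

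Inhbb, the gene of the βB subunit, was highest after 1 session. Probe set 1377163_at read 2134, 891 and 952 in control, 4032, 4292 and 4375 in IMO_1x and 2423, 3714 and 2110.4 in IMO_6x. The IMO_1x arrays lay close together and above every control and every IMO_6x array, while IMO_6x overlapped control through control replicate 1. The log2 difference from control was 1.78 ± 0.35 (3.44-fold) after 1 session and 1.12 ± 0.35 (2.17-fold) after 6, the latter 1.19 without IMO_6x replicate 1. IMO_6x against IMO_1x was -0.66 ± 0.35, and -0.59 without that array. The βA and βB genes thus stood in a different order of groups, with IMO_6x highest for Inhba and IMO_1x highest for Inhbb.

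Inha, the gene of the inhibin α subunit, was higher in all 6 stressed arrays than in any control array. Probe set 1387124_at read 3435, 3433 and 2502 in control, 6629, 12973 and 13159 in IMO_1x and 5881, 7499 and 7839 in IMO_6x. IMO_1x replicate 1 was well under the other IMO_1x arrays and within the range of IMO_6x, so the stressed groups overlapped. The log2 difference was 1.75 ± 0.29 (3.36-fold) after 1 session, 1.18 ± 0.29 (2.27-fold) after 6 and -0.57 ± 0.29 between IMO_6x and IMO_1x. Without IMO_6x replicate 1 the last 2 values were 1.31 and -0.44.

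Since inhibin α is known as a cortex product, the cortex markers are set beside it array by array. In IMO_1x the mean log2 level of the 9 cortex markers was 16.18, 15.46 and 15.07 in replicates 1, 2 and 3, where Inha stood at 12.70, 13.67 and 13.69. The cortex means of the control arrays were 14.93 to 15.39. In IMO_6x the cortex means were 16.36, 16.49 and 16.90 with Inha at 12.53, 12.88 and 12.94, both above control in every array. The part of cortex RNA in the Inha values was not tested.

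**Figure D1:**
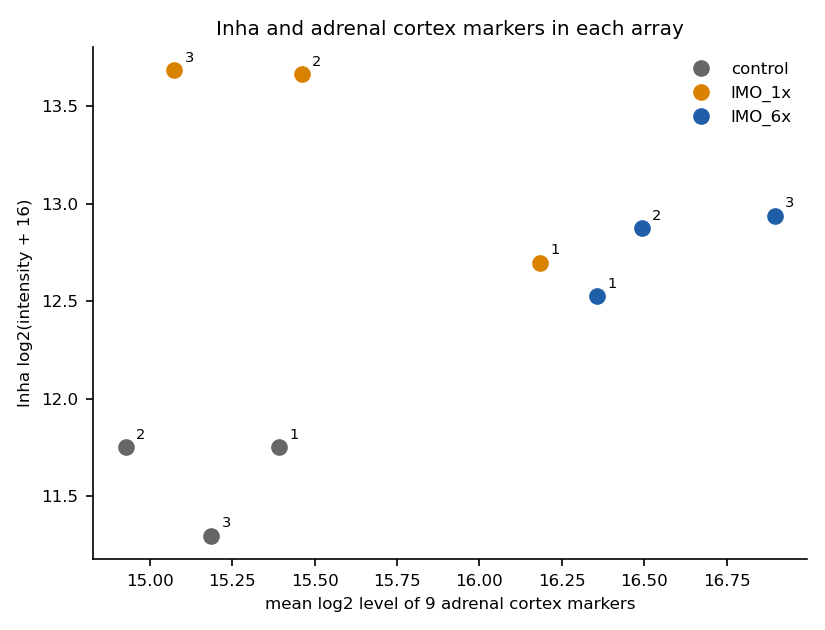
Inha against adrenal cortex markers in each of the 9 arrays. The x axis is the mean log2 level of 9 cortex markers and the y axis the log2(intensity + 16) of the Inha probe set; each point is 1 array, coloured by group and numbered by replicate. IMO_1x replicates 2 and 3 lie highest on the Inha axis, at 13.67 and 13.69, with cortex means of 15.46 and 15.07.

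Fst, the gene of follistatin, differed from control mainly after 6 sessions. Probe set 1387843_at read 244, 597 and 377 in control, 222, 445 and 528 in IMO_1x and 6110.3, 3402 and 3638 in IMO_6x. Control and IMO_1x overlapped throughout, and every IMO_6x array lay far above both. The log2 difference was -0.02 ± 0.46 for IMO_1x against control, 3.42 ± 0.46 (10.7-fold) for IMO_6x against control and 3.44 ± 0.46 (10.9-fold) for IMO_6x against IMO_1x. Without IMO_6x replicate 1 the last 2 were 3.15 and 3.18.

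The other Fst probe set, 1372750_at, had smaller steps. It read 664, 901 and 583 in control, 998, 1029 and 956 in IMO_1x and 1246, 1484 and 1645 in IMO_6x. The groups were in the order control, IMO_1x, IMO_6x without overlap, the gap between control and IMO_1x being 0.08 on the log2 scale. The log2 differences were 0.49 ± 0.29, 1.02 ± 0.29 and 0.54 ± 0.29 for 1 session against control, 6 sessions against control and 6 sessions against 1, the last 2 being 1.13 and 0.64 without IMO_6x replicate 1. The probe sets thus disagree on the size of the step from 1 to 6 sessions and on whether 1 session stands apart from control, and both placed IMO_6x highest.

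Of the receptors, Acvr2a showed no separation of the groups. Probe set 1381220_at read 2008, 1311 and 1816 in control, 2863, 1771 and 1967 in IMO_1x and 3509, 1973 and 1574 in IMO_6x. Each pair of groups overlapped, with log2 differences from control of 0.35 ± 0.34 and 0.39 ± 0.34, the latter 0.06 without IMO_6x replicate 1. Acvr2b, the other type II receptor, was lowest after 1 session. Probe set 1388179_at read 852, 2151 and 1467 in control, 764, 812 and 753 in IMO_1x and 1903, 1312 and 1422 in IMO_6x. All IMO_1x arrays lay under control replicate 1, the lowest control, by as little as 0.07 on the log2 scale, and under all IMO_6x arrays, while control and IMO_6x overlapped. The log2 difference was -0.83 ± 0.36 for IMO_1x against control, 0.13 ± 0.36 for IMO_6x against control and 0.96 ± 0.36 for IMO_6x against IMO_1x. Without IMO_6x replicate 1 the last 2 were -0.03 and 0.80.

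Smad7, the inhibitory Smad, had 3 probe sets that did not give 1 picture. The brightest, 1368896_at, read 1003, 1583 and 1250.1 in control, 2054, 2539 and 2545 in IMO_1x and 2526, 3268 and 1926 in IMO_6x. Both stressed groups lay above control and overlapped each other, with log2 differences from control of 0.91 ± 0.27 (1.87-fold) and 0.99 ± 0.27 (1.99-fold, and 0.99 also without IMO_6x replicate 1). Probe set 1368898_at read 299, 291 and 152 in control, 605, 443 and 497 in IMO_1x and 2553, 409 and 584 in IMO_6x. It too had no overlap of either stressed group with control, with log2 differences of 1.06 ± 0.67 and 1.78 ± 0.67. IMO_6x replicate 1 decided the size of the second, which was 1.00 without it. The control mean of 1368898_at, 7.99, was under the limit of 8.51, so it was tested through its stressed arrays.

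The third Smad7 probe set, 1368897_at, went the other way after 6 sessions. It read 591, 395 and 662 in control, 989, 512 and 410.0 in IMO_1x and 143, 71.5 and 94.3 in IMO_6x. Control and IMO_1x overlapped and every IMO_6x array lay below both, with a log2 difference from control of -2.26, and -2.49 without IMO_6x replicate 1. Its mean level of 8.40 was under the limit of 8.51, so it was not tested in this fit. It was tested in 5 alternatives, the fit without the filter and those that left out an IMO_6x array. Leaving out such a low array raises its mean level over the limit. It passed downward in IMO_6x against control in each, but these fits share arrays, and nothing is read from their number. After 1 session Smad7 thus lay above control in 2 of 3 probe sets, neither of them past the threshold in the fit below. After 6 sessions the probe sets opposed each other.

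**Figure D2:**
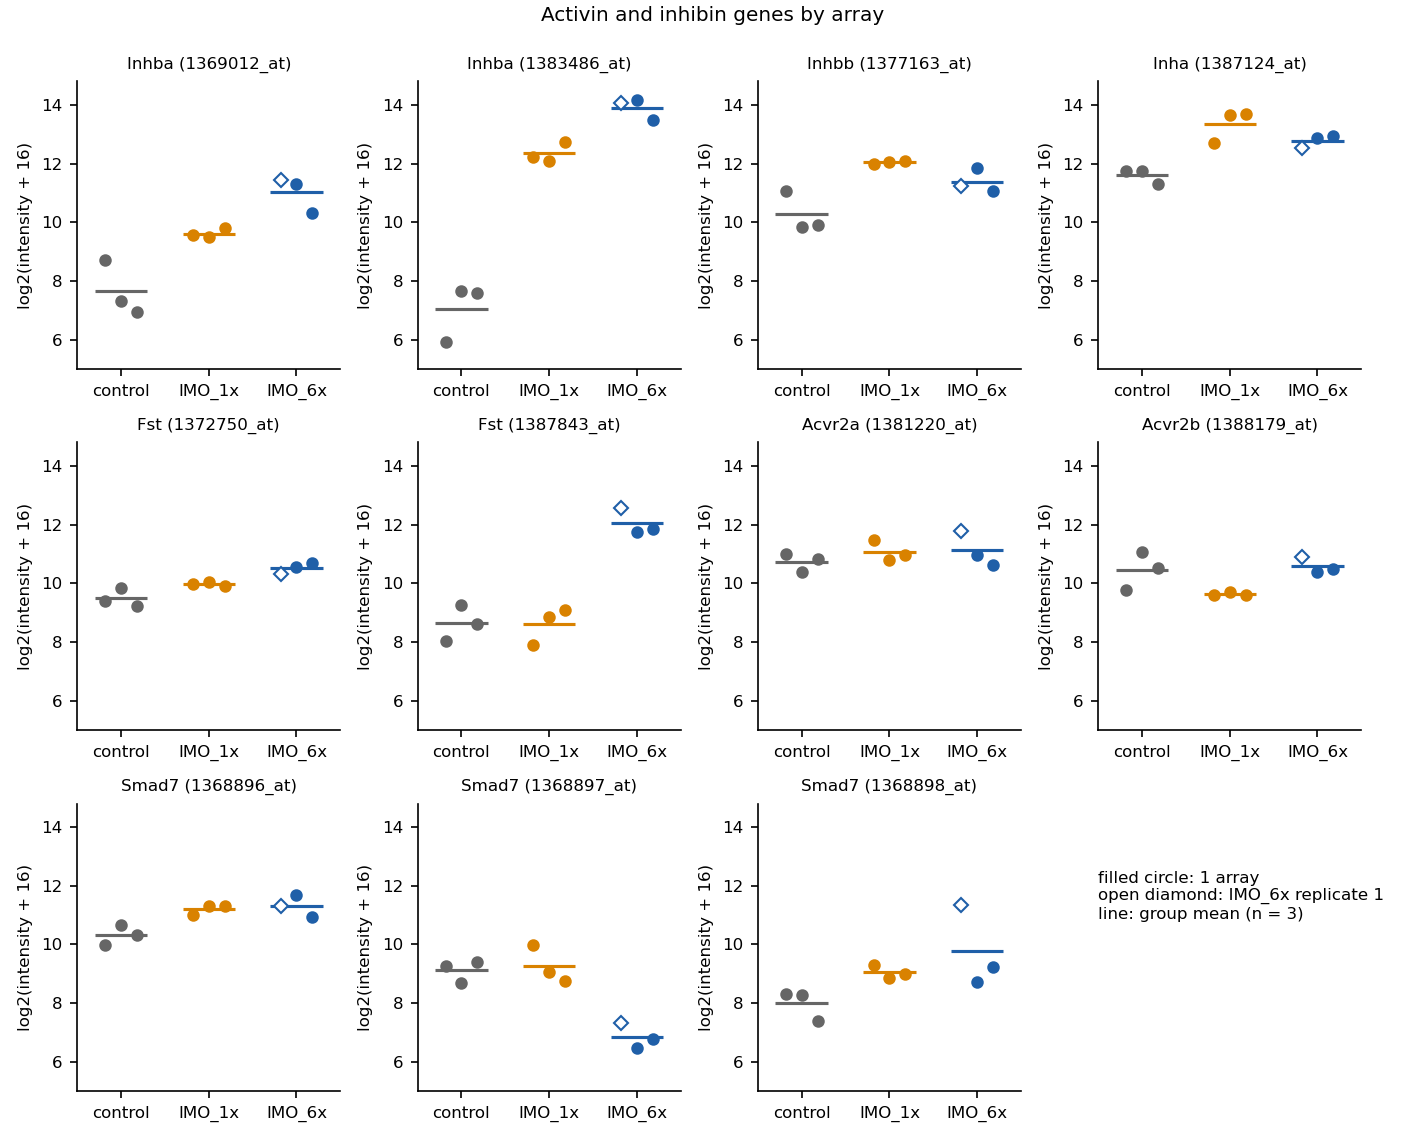
Log2 level of each of the 11 probe sets in each of the 9 arrays. Each panel is 1 probe set, the y axis is log2(intensity + 16), points are arrays grouped as control, IMO_1x and IMO_6x, open diamonds are IMO_6x replicate 1, and lines mark group means. Inhba steps up from control to IMO_1x to IMO_6x, and Fst 1387843_at is high only in the 3 IMO_6x arrays.

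In 1 limma fit over 15716 probe sets, with a threshold of 0.05 on the Benjamini-Hochberg adjusted p, 10 of the 11 probe sets were tested. Of these 10, 3 had control means under the filter limit. In IMO_1x against control 3 passed, all higher (Inhba 1383486_at, Inhbb and Inha), where 7.29% of all probe sets passed, 3.65% upward and 3.64% downward. In IMO_6x against control 7 passed, all higher (both Inhba and both Fst probe sets, Inhbb, Inha and Smad7 1368896_at), where 22.5% of all passed, 8.16% upward and 14.3% downward. Fst 1387843_at passed between IMO_6x and IMO_1x, higher, where 9.33% of all passed, 4.13% upward and 5.20% downward. These counts follow from how the genes were chosen, and nothing is read from them.

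The counts moved when arrays were left out or the processing was changed. In IMO_1x against control 5 passed when IMO_6x replicate 1 was left out of the spread that all groups share, and 2 without control replicate 2, control replicate 3 or any 1 IMO_1x array, Inhbb being lost in each of these. In IMO_6x against control 3 passed without control replicate 3, 4 without IMO_1x replicate 2 or IMO_1x replicate 3, and 4 upward with Smad7 1368897_at downward without IMO_6x replicate 3. Inhbb passed in 14 of 20 alternatives after 1 session and in 8 of 20 after 6. After 6 sessions Fst 1372750_at passed in 10 of 20 and Smad7 1368896_at in 13 of 20. With each array centred on its median 1 passed after 1 session, 4 after 6 and 1 between the stressed groups. Quantile normalization gave 4, 6 and 1. Fits of only the groups compared gave 5, 4 and 0, so the Fst call between the stressed groups ended there. Between the stressed groups 2 passed upward and 1 (Smad7 1368897_at) downward without IMO_6x replicate 1, 2 without control replicate 1, and that of Fst was lost without IMO_1x replicate 2 or 3. Over the 20 alternatives the log2 differences of Inhba 1383486_at from control were 4.74 to 5.60 and 6.19 to 7.15.

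Of the 11 probe sets, 7 lay above control without overlap, 1 below and 3 overlapped in IMO_1x, where 39.2% of all tested probe sets did not overlap, 13.2% above and 26.0% below. In IMO_6x the counts were again 7, 1 and 3, where 40.9% of all did not overlap, 13.8% above and 27.2% below. Between IMO_6x and IMO_1x they were 5, 2 and 4, where 34.3% did not overlap, 14.1% above and 20.2% below. The median log2 difference of the 11 was 0.91, 1.12 and 0.54 in these comparisons, beside -0.12, -0.28 and -0.14 over all probe sets tested. The comparisons share arrays and are not independent of each other.

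**Figure D3:**
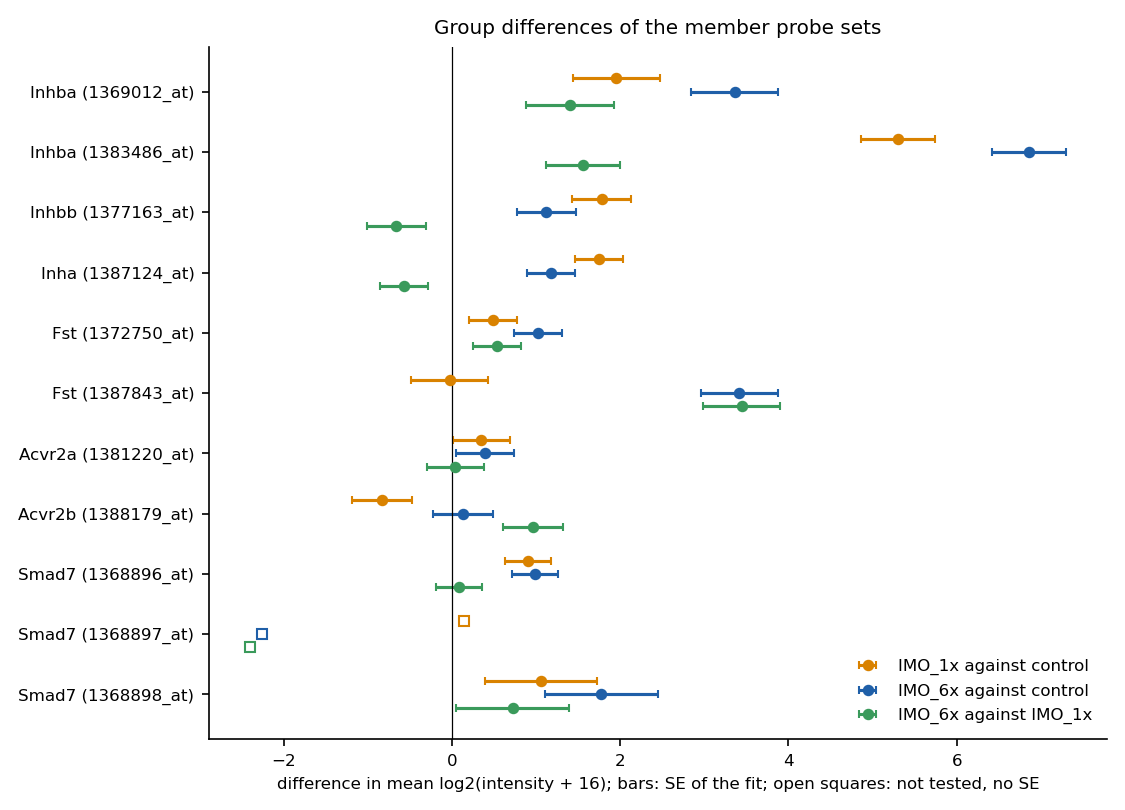
Log2 differences of the 11 probe sets in the 3 comparisons. Points are differences of group means on the log2(intensity + 16) scale, bars are standard errors of the limma fit, and open squares without a bar mark the probe set that was not tested. Inhba 1383486_at stands furthest right against control, at 5.30 and 6.86, and Smad7 1368897_at, the untested one, is at -2.26 in IMO_6x.

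Other genes of the TGF-β family were taken from 5 lists, each gene through its brightest probe set, and 59 of 82 listed genes were tested. Skil and Pmepa1 stand in 2 of the lists. The lists were chosen with earlier results of these data known, so their counts are no test of the family. In IMO_1x against control 6 rose and 1 fell, where 8.28% of 11287 genes passed (3.80% up, 4.47% down). In IMO_6x against control 6 rose and 6 fell, where 22.9% passed (9.03% up, 13.9% down). Between IMO_6x and IMO_1x 4 rose and 4 fell, where 9.03% passed (4.73% up, 4.30% down). The median log2 difference of the 59 genes was 0.16, 0.07 and -0.09, beside -0.13, -0.23 and -0.08 over all genes. Without IMO_6x replicate 1 the counts were 14 up and 5 down, 12 up and 11 down, and 6 up and 11 down. With each array centred on its median only Tgfbr3, Fstl1, Id1, Pmepa1 and Ccn2 passed in IMO_6x against control and none in the other comparisons (9 and 11 at an unadjusted p under 0.05 by limma).

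Among 11 other ligands, Bmp2, a bone morphogenetic protein, fell after 6 sessions. Its levels on the log2 scale were 12.48, 12.65 and 13.06 in control, 13.45, 13.67 and 13.66 in IMO_1x and 11.60, 12.27 and 11.95 in IMO_6x, 3 groups without overlap. The difference was -0.79 ± 0.23 for IMO_6x against control (limma adjusted p = 0.0363) and -1.65 ± 0.23 for IMO_6x against IMO_1x (0.0102). The differences were -0.62 and -1.48 without IMO_6x replicate 1. The first call ended without any 1 of the 3 control arrays, IMO_1x replicate 2, IMO_1x replicate 3 or IMO_6x replicate 3 (adjusted p 0.0517 to 0.143, and 0.000218 to 0.534 over all alternatives). The second ended without IMO_1x replicate 2 or 3 (0.0575 and 0.0638, and 3.39e-06 to 0.166 over all). In IMO_1x against control none of the 11 passed by limma and 2 had an unadjusted p under 0.05, with Bmp2 at 0.86 ± 0.23 (adjusted p = 0.0538) and Tgfb3 at 0.85 ± 0.31 (0.157). Inhbe, the βE subunit, differed from control by 0.08 ± 0.74 and 0.25 ± 0.74.

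Among 9 other receptors and co-receptors, Tgfbr3, or betaglycan, which is a co-receptor of inhibin, fell after 6 sessions. Its log2 levels were 12.70, 11.23 and 12.47 in control, 12.46, 10.46 and 10.51 in IMO_1x and 10.89, 8.13 and 9.07 in IMO_6x. The IMO_6x arrays lay below control, and IMO_1x overlapped both. The log2 difference was -2.77 ± 0.76 (limma adjusted p = 0.028), and -3.53 without IMO_6x replicate 1. The call ended without control replicate 1, control replicate 3, IMO_6x replicate 2 or IMO_6x replicate 3 (adjusted p 0.0691 to 0.0993, and 1.72e-05 to 0.0993 over all alternatives). None of the 9 passed in IMO_1x against control or between the stressed groups by limma, where 1 and 3 had an unadjusted p under 0.05. Acvr1, another type I receptor, differed from control by 0.59 ± 0.23 after 1 session (adjusted p = 0.18) and 0.47 ± 0.23 after 6 (0.172).

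Among 12 binding and processing proteins, Pcsk6, a convertase that cleaves precursors of the family, rose in both stressed groups. Its log2 levels were 8.60, 8.23 and 8.46 in control, 10.55, 10.58 and 10.01 in IMO_1x and 9.65, 10.15 and 9.67 in IMO_6x. The difference was 1.95 ± 0.34 after 1 session (limma adjusted p = 0.00934) and 1.39 ± 0.34 after 6 (0.0187, and a difference of 1.48 without IMO_6x replicate 1), with no overlap with control. Its control mean of 8.43 was under the limit of 8.51, so it was tested through its stressed arrays. The first call ended without IMO_1x replicate 2 (adjusted p = 0.0678, and 2.98e-05 to 0.0678 over all alternatives). The second ended without control replicate 2, control replicate 3 or IMO_6x replicate 2 (0.0532 to 0.0661, and 0.000476 to 0.0873 over all).

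Fstl1, a secreted relative of follistatin, rose after 6 sessions. It stood at log2 levels of 11.04, 12.01 and 11.78 in control, 11.51, 12.19 and 12.15 in IMO_1x and 13.50, 13.41 and 13.17 in IMO_6x. The difference was 1.75 ± 0.29 from control (limma adjusted p = 0.00367) and 1.41 ± 0.29 from IMO_1x (0.0208). The differences were 1.68 and 1.34 without IMO_6x replicate 1. The call against control held in all 20 alternatives, and that against IMO_1x ended without any 1 IMO_1x array (0.0694 to 0.0729, and 0.000169 to 0.166 over all). Fstl3, another activin-binding relative of follistatin, differed from control by -0.07 ± 0.44 and 0.56 ± 0.44, and Furin, another convertase, by -0.10 ± 0.18 and -0.19 ± 0.18, with no adjusted p below 0.382 against control.

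Among 17 Smads and intracellular regulators, 1 rose and 1 fell after 1 session, and 2 rose and 4 fell after 6. Over all genes 3.80% rose and 4.47% fell after 1 session, and 9.03% rose and 13.9% fell after 6. Smad3, which carries the activin signal, fell after 6 sessions. Its log2 levels were 11.53, 11.47 and 11.67 in control, 10.40, 10.32 and 10.37 in IMO_1x and 7.90, 9.64 and 9.57 in IMO_6x, 3 groups without overlap. The difference was -2.52 ± 0.43 for IMO_6x against control (limma adjusted p = 0.00433), and -1.95 without IMO_6x replicate 1. The call ended with quantile normalization (0.0586) and with median centring (0.0712, and 1.09e-06 to 0.0712 over all alternatives). Smad2, its close relative, differed by -0.81 ± 0.27 after 1 session (0.116) and -0.49 ± 0.27 after 6 (0.218). Smad4, the shared partner, was 0.70 ± 0.19 higher in IMO_6x than in IMO_1x (0.0481, and 0.74 higher without IMO_6x replicate 1), a call that ended without any 1 of 8 arrays, all but IMO_6x replicate 1 (0.0551 to 0.146, and 0.000321 to 0.467 over all alternatives). Smad6, the other inhibitory Smad, fell after 6 sessions, with log2 differences of -1.17 ± 0.37 from control (0.0477) and -1.51 ± 0.37 from IMO_1x (0.0351). The differences were -1.05 and -1.39 without IMO_6x replicate 1. Each of these calls also ended without any 1 of those 8 arrays (0.0617 to 0.157 and 0.0516 to 0.126, and 0.00223 to 0.27 and 0.000686 to 0.155 over all).

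Tab1, an adaptor of the kinase Map3k7 (Tak1), fell after 1 session and after 6. The log2 levels of Tab1 were 12.20, 12.37 and 12.22 in control, 10.99, 10.86 and 10.77 in IMO_1x and 11.16, 10.58 and 11.03 in IMO_6x. The difference was -1.39 ± 0.22 (limma adjusted p = 0.00479) and -1.34 ± 0.22 (0.0033, and a difference of -1.46 without IMO_6x replicate 1). Both calls ended with median centring (0.117 and 0.0706). Map3k7 itself fell by 0.88 ± 0.25 after 6 sessions (0.0299, and a difference of -0.79 without IMO_6x replicate 1), a call that ended without any 1 control array, IMO_1x replicate 2 or IMO_6x replicate 3 (0.0508 to 0.102, and 0.000281 to 0.454 over all alternatives). Smurf2, a ubiquitin ligase that works with Smad7, rose by 0.75 ± 0.19 from control (0.0208) and 0.76 ± 0.19 from IMO_1x (0.0373), with differences of 0.80 and 0.81 without IMO_6x replicate 1. The first of these calls ended without any 1 control array or IMO_6x replicate 2 (0.0573 to 0.0766, and 0.00088 to 0.269 over all), and the second without any 1 of the 8 arrays other than IMO_6x replicate 1 (0.061 to 0.148, and 0.000385 to 0.417 over all). Tgif1, a co-repressor of Smads, fell by 1.82 ± 0.34 from IMO_1x to IMO_6x (0.0162, and a difference of -1.47 without IMO_6x replicate 1), ending without any 1 IMO_1x array (0.0575 to 0.077, and 0.000106 to 0.188 over all).

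Among 12 genes that Smad signals are known to induce, 5 rose after 1 session and 3 after 6, where 3.80% and 9.03% of all genes rose. This list too was chosen with earlier results known, and nothing is read from its counts. Junb, an AP-1 subunit that many other stimuli induce as well, stood at 11.59, 11.39 and 11.63 in control, 14.78, 14.85 and 14.67 in IMO_1x and 11.24, 12.95 and 13.09 in IMO_6x. It rose by 3.23 ± 0.42 after 1 session (limma adjusted p = 0.00172) and fell from IMO_1x to IMO_6x (log2 difference -2.34 ± 0.42, adjusted p = 0.0157, and -1.74 without IMO_6x replicate 1). The first call ended with median centring (0.054). The latter call ended without any 1 IMO_1x array (0.0548 to 0.0685, and 2.65e-06 to 0.152 over all alternatives). Id1, an inhibitor of helix-loop-helix factors induced chiefly by BMP signals, stood at 12.88, 12.65 and 13.05 in control, 14.43, 14.94 and 14.81 in IMO_1x and 14.44, 14.83 and 15.00 in IMO_6x. It rose by 1.87 ± 0.23 (0.00141) and 1.89 ± 0.23 (0.00101, and a difference of 2.05 without IMO_6x replicate 1). The call after 1 session ended with median centring (0.115).

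Pmepa1, a feedback inhibitor that holds back Smad2 and Smad3, rose most clearly after 6 sessions. Its log2 levels were 11.92, 11.89 and 11.59 in control, 12.93, 13.07 and 12.89 in IMO_1x and 15.43, 14.27 and 13.98 in IMO_6x, 3 groups without overlap. The difference from control was 1.16 ± 0.33 after 1 session (limma adjusted p = 0.0689) and 2.76 ± 0.33 after 6 (0.000934, and a difference of 2.32 without IMO_6x replicate 1). IMO_6x lay 1.60 ± 0.33 above IMO_1x (0.022, and a difference of 1.16 without that array), a call that ended without any 1 IMO_1x array (0.0719 to 0.0929, and 3.77e-05 to 0.0929 over all alternatives).

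Ccn2, a matrix-associated growth regulator, rose by 1.44 ± 0.33 after 1 session (limma adjusted p = 0.0305) and 2.10 ± 0.33 after 6 (0.00315, and a difference of 2.12 without IMO_6x replicate 1). The first call ended without control replicate 2, control replicate 3, IMO_1x replicate 1 or IMO_1x replicate 3 (0.108 to 0.136, and 0.00353 to 0.22 over all alternatives), and the second held in all 20. Cdkn1a, a cell cycle inhibitor, rose by 2.28 ± 0.48 after 1 session (0.0212), ending without control replicate 2, control replicate 3, IMO_1x replicate 2 or IMO_1x replicate 3 (0.0889 to 0.104, and 6.03e-06 to 0.104 over all). Skil, a repressor of Smads that they induce, rose by 1.19 ± 0.30 after 1 session (0.0411). In the fit with a replicate block its adjusted p was 0.0572, and it was 0.109 to 0.156 without any 1 control or IMO_1x array (2.17e-06 to 0.487 over all). Id2, Id3, Col1a1 and Fn1 of the same list had lower means in IMO_6x than in control, and its other genes had higher means. The log2 differences of these lower genes were -1.08, -1.23, -0.54 and -0.50, none past the threshold. For Id2 and Id3 IMO_6x replicate 1 was the lowest array, at 11.60 and 8.14. In IMO_6x replicates 2 and 3 Id3 stood at 14.65 and 14.46, above every control array (13.60, 13.34 and 13.97). Its lower mean thus rests on replicate 1. Id2 stood at 14.72 and 14.89 in replicates 2 and 3, within the control range of 14.32 to 15.34. Several genes of the list answer to other signals too, and the list is no measure of activin activity.

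**Figure D4:**
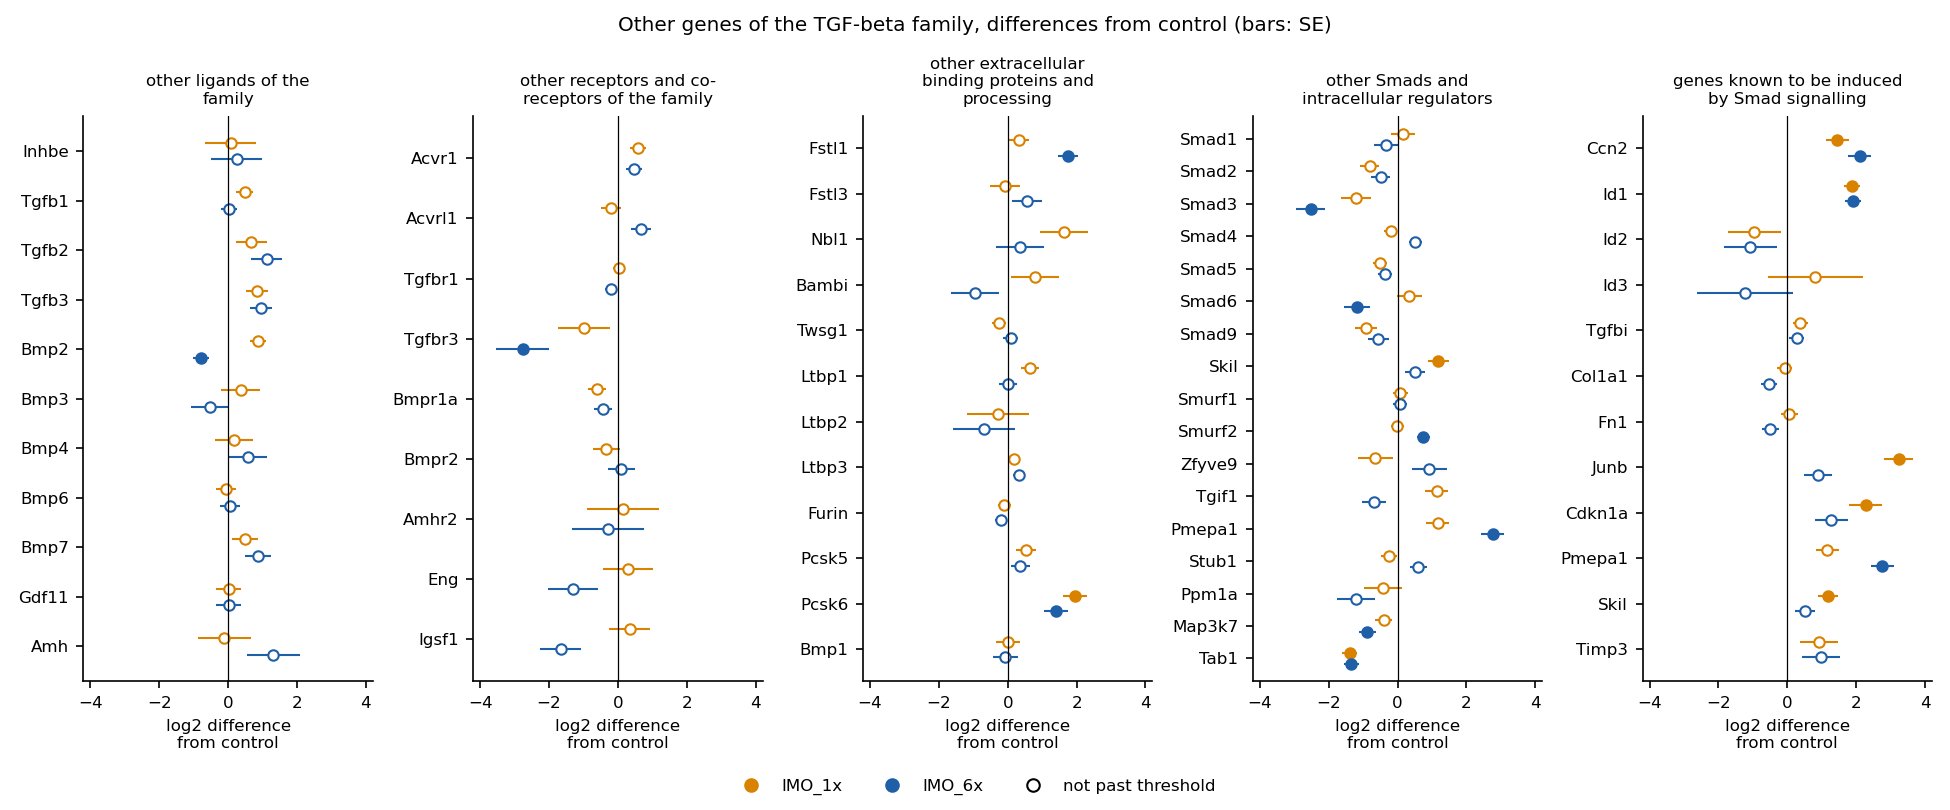
Log2 differences from control of the other TGF-β family genes, in 5 panels by role. Each row is 1 gene through its brightest probe set; orange is IMO_1x, blue is IMO_6x, bars are standard errors of the limma fit, and filled points are past the threshold. Pmepa1 (2.76) lies furthest right among the filled IMO_6x points, Tgfbr3 (-2.77) and Smad3 (-2.52) furthest left.

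The genes most like Inhba were found by the root mean square difference, over the 9 arrays, between the log2 deviations of each gene from its own control mean and those of Inhba 1383486_at. The 5 nearest of 11286 genes were Cbln2 at 0.93, Nr4a3 at 0.93, Fam110c at 1.05, Myo16 at 1.08 and Crem at 1.16, where the median over all genes was 5.21 and the other Inhba probe set was at 2.94. Cbln2, a secreted synaptic organiser, differed from control by 4.69 after 1 session and 5.92 after 6. Nr4a3, an orphan nuclear receptor, differed by 6.17 and 6.02, and Crem, a cAMP-responsive transcription factor, by 4.30 and 5.55. Fam110c differed by 5.57 and 5.60 and Myo16, an unconventional myosin, by 4.68 and 5.84. Nr4a3 and Fam110c were about level between the stressed groups with all arrays, while Inhba, Cbln2, Myo16 and Crem had higher means in IMO_6x. Without IMO_6x replicate 1 the differences after 6 sessions were 6.05 for Cbln2, 6.40 for Nr4a3, 5.91 for Fam110c, 6.40 for Myo16 and 5.43 for Crem. The control means of Cbln2 (7.11), Fam110c (7.89) and Myo16 (5.86) were under the limit of 8.51, like that of Inhba, so their differences and their likeness rest on dim control values. This measure favours genes with large differences of the same size.

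**Figure D5:**
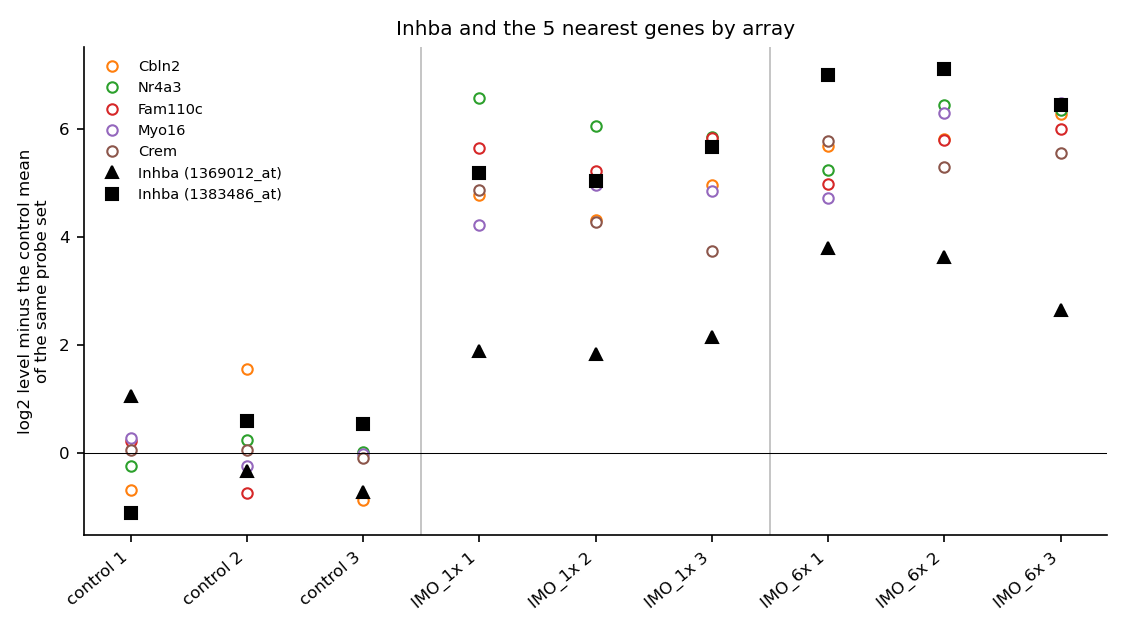
Inhba 1383486_at and the 5 genes nearest to it, as log2 deviations from their own control mean in the 9 arrays. Open circles are the 5 genes, black squares and triangles the Inhba probe sets 1383486_at and 1369012_at, the x axis lists the arrays by group and replicate, and the y axis is the log2 deviation. Mean deviations of Inhba 1383486_at are 5.30 in IMO_1x and 6.86 in IMO_6x, and those of the 5 genes lie between 4.30 and 6.17.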

How the data were processed

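RNA of 9 rat adrenal medulla samples was hybridised to Affymetrix arrays, 1 sample per array. Per the labels, the RNA was labelled with biotin by Affymetrix. The authors deposited linear intensities, 1 for each probe set of an array. Equal trimmed means (lowest and highest 2% left out) show a scaling of whole arrays before deposit. The probe summary, its background step and the scaling target were not given in the sources used here, and neither was the genome build. No depth applies to arrays, and their number limits the precision.

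Of 31099 probe sets 57 were array controls. An annotation table gave 1 symbol to 20826 of the others, several to 436 and none to 9780, and only the first were used. Values were taken as log2(intensity + 16), and the dimmest 30% of all probe sets other than array controls were left out, which left 15716 probe sets of 11287 genes. All 9 arrays entered 1 fit with limma 3.58.1 in R 4.3.3 (lmFit, eBayes with trend, 6 residual degrees of freedom), two-sided, with Benjamini-Hochberg adjustment over all probe sets in each of 3 comparisons. Folds are on the log2(intensity + 16) scale, which understates those of dim probe sets. The fit was tested on simulated data in which only IMO_1x differed from control. Their spread came from the control and IMO_1x arrays and was alike in all groups. That test therefore does not cover the spread of the IMO_6x arrays. Promoter motifs were searched on both strands with Python 3.11.15.

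The members, the lists and the promoter motifs were chosen with earlier results of these data known. Named genes are all members, from each list up to 4 genes with the smallest adjusted p in each comparison and any past the threshold (of these, the text gives those the results turn on), and the 5 genes nearest to Inhba. Inhbe, Smad2, Fstl3 and Furin were added to the text for their roles, whatever their values. Id2, Id3, Col1a1 and Fn1 are given as the Smad-induced genes with lower means in IMO_6x than in control. The alternatives are named in the closing section.

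The labels number the replicates 1 to 3 in each group. Deviations from the group means correlated between control and IMO_1x arrays of the same number at 0.577, 0.427 and 0.235, all over 0.1. The numbers were therefore taken to pair these arrays. However, control replicate 2 also correlated with IMO_1x replicate 3 at 0.361, above the 0.235 of a same-number pair. This pairing comes from the data, since the labels name no shared animal, batch or day. The main fit has no term for it, and the alternative with a replicate block has one. Correlations with IMO_6x were 0.136, 0.042 and 0.154 for control and 0.149, 0.076 and 0.098 for IMO_1x, and these arrays were not taken as paired.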

Additional observations from a re-analysis of the deposited data

Results flagged for a closer look

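The test of IMO_6x against IMO_1x is the test of whether 6 sessions differ from 1, and 8 of the 59 listed genes passed it. Fst 1387843_at had a log2 difference of 3.44, given as a description because Fst was picked from results of these arrays. The brighter Fst probe set, 1372750_at, had 0.54 ± 0.29 and did not pass. With each gene read through its brightest probe set, 0 of the 7 member genes passed in this comparison. Bmp2 had -1.65, with IMO_1x above and IMO_6x below control. Fstl1 had 1.41 and Pmepa1 1.60, both highest after 6 sessions. Smad4 had 0.70 and Smurf2 0.76. Smad6 had -1.51, Tgif1 -1.82 and Junb -2.34. The 8 genes are named because they passed, and in the same comparison 9.03% of 11287 genes passed. The IMO_6x arrays also differed in the actin 3′/5′ ratio (6.11 to 230.6, against 1.57 to 1.99 in IMO_1x), and the part of this in the differences was not tested.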

How the results depend on the processing

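Leaving out each array in turn gave 395 to 3858 probe sets past the threshold in IMO_1x against control (1145 with all arrays), 1538 to 7204 in IMO_6x against control (3532) and 0 to 4741 between the stressed groups (1466), and 4 to 19, 6 to 23 and 0 to 17 listed genes (7, 12 and 8). The highest counts were without IMO_6x replicate 1, and the counts of 0 without IMO_1x replicate 3 (3276 probe sets and 14 listed genes at an unadjusted p under 0.05 by limma), with 0 listed genes also without IMO_1x replicate 2 (14 unadjusted). In such a fit a group of fewer arrays is assumed to vary like the others. Centring each array on its median gave 269, 977 and 150 probe sets and 0, 5 and 0 listed genes (9 and 11 unadjusted where 0), and moved the median difference of all probe sets from -0.12 to 0.01 and from -0.28 to -0.10 against control. Quantile normalization gave 641 probe sets and 5 listed genes between the stressed groups. The split of higher to lower calls was 573 to 572, 1283 to 2249 and 649 to 817 as reported, 560 to 327, 1266 to 1129 and 366 to 275 with quantile normalization, and 204 to 65, 630 to 347 and 91 to 59 with centring. Array weights, whose estimation stopped before it converged, gave 6052, 9273 and 8137 probe sets and 30, 39 and 36 listed genes. Fits of only the groups compared gave 3560, 1801 and 0 probe sets (3345 unadjusted) and 18 and 0 listed genes in IMO_1x against control and between the stressed groups (14 unadjusted). Quantile normalization without IMO_6x replicate 1, chosen after seeing the data, gave 3850 and 3018 probe sets in these comparisons and 25 and 22 listed genes against control. With a replicate block (the number as a term), 1012, 3627 and 1320 probe sets and 7, 13 and 9 listed genes passed. The block also groups the IMO_6x arrays, which were not taken as paired. Its results for IMO_6x therefore rest on numbers not shown to pair them. Beside Skil, that block ended the calls of Inhbb and Smad6 (adjusted p = 0.0554, 0.00223 to 0.27 over its alternatives) in IMO_6x against control and of Smurf2 (0.054, 0.000385 to 0.417) between the stressed groups. Of 660 differences of the 11 probe sets over 20 alternatives, 648 moved by less than 1 SD, 12 by more and 0 changed sign with a call. Of the calls of listed genes, 22 ended with centring and 9 with quantile normalization, and 0 with either other pseudocount. Those 9 were Ccn2 in IMO_1x against control, Pcsk6, Bmp2, Smad3 and Smad6 in IMO_6x against control, and Pmepa1, Tgif1, Smad4 and Smad6 between the stressed groups. Without the filter, both Smad6 calls and that of Smad4 ended. With only the groups compared, Tgfbr3, Pcsk6, Bmp2 and Smad6 ended in IMO_6x against control. The cause was not tested.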
